A study of Mus musculus with 4 samples.

Results

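Nucleoporins and nuclear transport receptors were examined in mouse embryonic stem cells (day 0) and in the epiblast-like tissue they had formed by day 3 of SFEBq, a serum-free culture of floating aggregates made by quick reaggregation. Genes were taken by symbol (Nup, Kpna, Kpnb1, Ipo, Xpo and Tnpo names), and 44 of the 18194 genes on the array were members, with 21 pore proteins and 23 transport receptors. Each day had 2 samples, numbered 1 and 2, and precision was limited by this small number of arrays. The labels name the cells only as mouse embryonic stem cells, with no line, strain, genotype or agent beside the culture, and call all 4 samples differentiated. Culture form, time and cell state moved together between the groups and cannot be told apart. Nothing says that same-day samples came from different cultures, and the p-values therefore reflect a spread that may be technical.

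Nuclear pores are large protein channels in the nuclear envelope. A scaffold of outer rings (the Y complex) and an inner ring holds disordered proteins rich in phenylalanine-glycine repeats, which fill the channel and admit transport receptors with their cargo. Importins carry cargo in and exportins carry it out, and the small GTPase Ran, loaded with GTP in the nucleus, sets the direction. In stem cells the importin alpha subtypes are known for carrying pluripotency factors, and a switch of subtypes has been described when embryonic stem cells turn into neurons.

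Over the 44 members, Pearson's r between the replicates was 0.9983 for day 0 and 0.9991 for day 3, and 0.9876 to 0.9886 for arrays of unlike days. This r runs across genes, which are no replicates, and serves as a description. The labelled states were checked on markers. All 8 naive pluripotency genes fell, all 5 measured genes of the formative epiblast rose. Of 3 genes that both states express, Pou5f1 was at 12.64 ± 0.06 and 12.64 ± 0.08 on the log2 scale (mean ± SD, n = 2), Sox2 fell by 0.64 and Lin28a rose 2.29-fold. Of 4 neural genes, Sox1 fell by 2.82, Nes rose by 0.64, and Pax6 and Zic1 were not called. Markers of another cell type moved as well. All 10 visceral endoderm genes rose, and their summed linear signal was 1500.5 and 1543 on the day 0 arrays against 21148 and 23552 at day 3. Of 6 fibroblast genes, 3 rose, Thy1 by 1.82, Dcn by 0.96 and Col1a2 by 0.49. The others, Col1a1, Col3a1 and Pdgfrb, were not called. The summed signal of the 6 was 277 to 280.1 at day 0 and 540.4 to 543.1 at day 3. Thy1, with means of 6.25 at day 0 and 8.07 at day 3 on the log2 scale, made most of the gain in the sum. The lowest mean level of any gene on these arrays was 2.40, so a value above 0 does not show that a marker was expressed. The part of these markers in the results that follow was not tested. In bulk samples, fewer cells of a type and less RNA per cell cannot be told apart.

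The differences were small. Every pore protein that passed the test was lower at day 3, with 11 of 21 lower, 0 higher and 10 not called, while transport receptors went both ways, in that 7 of 23 fell, 5 rose and 11 did not pass (limma, Benjamini-Hochberg adjusted p under 0.05). Over all genes, 21.4% were called lower and 20.9% higher. Calls were more frequent among bright genes, and 38 of the 44 members had a mean level of at least 9 on the log2 scale. Among the 5020 genes at that level, 36.4% were called lower and 28.0% higher, beside 10 lower and 0 higher of 18 pore proteins and 5 lower and 5 higher of 20 receptors. The receptors' shares were thus near or below that background in both directions. At an unadjusted p under 0.05 the pore proteins had 12 lower and 0 higher. With any 1 array left out, fewer pore proteins were called lower, and fewer of all genes were called lower too. The median log2 difference of pore proteins then ran from -0.19 to -0.15.

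**Figure D1:**
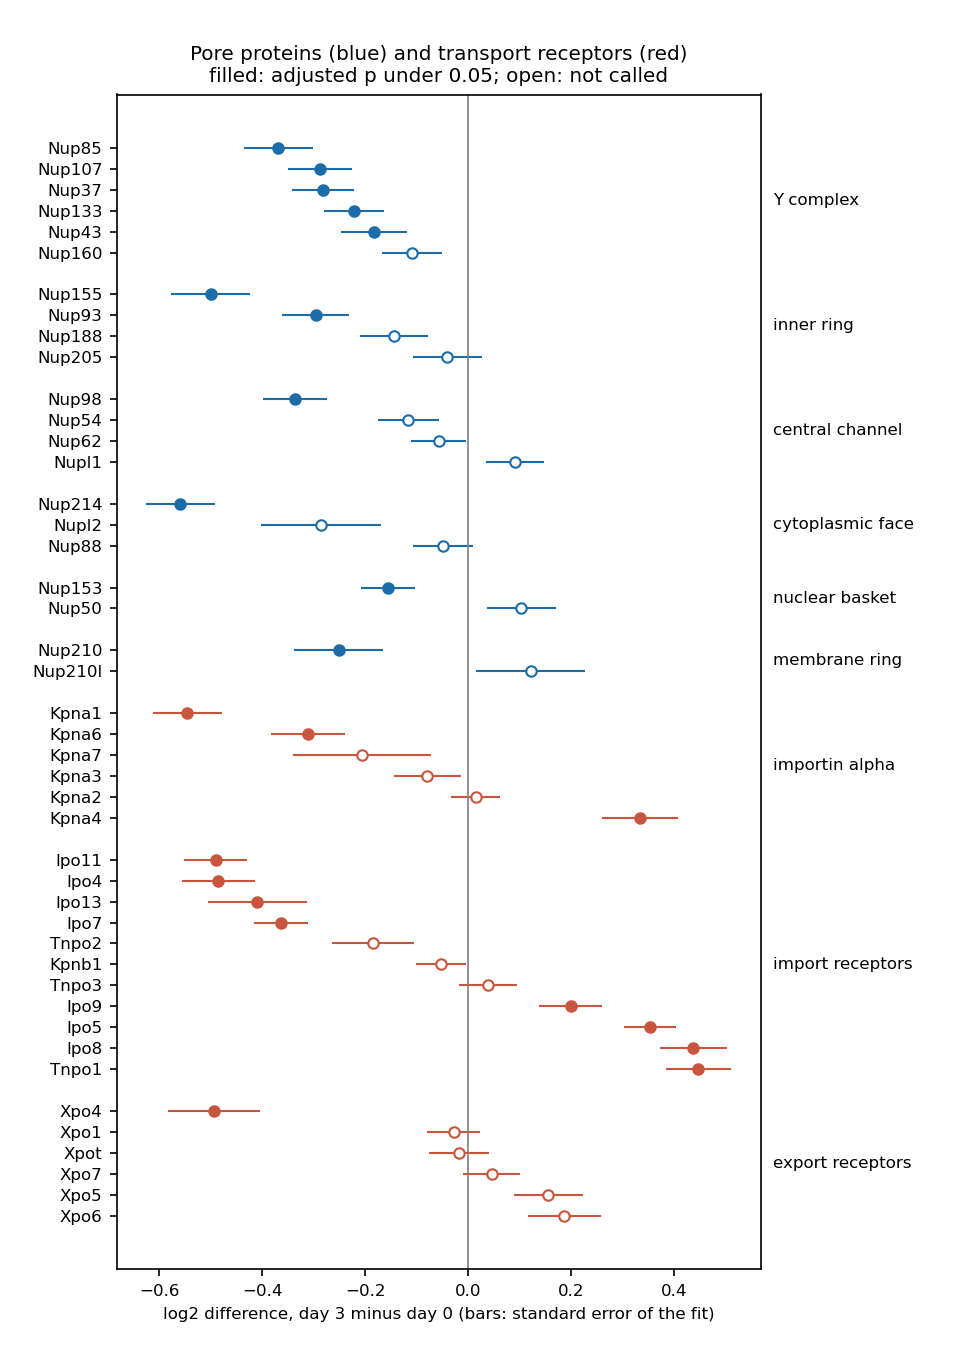
The log2 difference of each member, day 3 minus day 0, with the standard error of the fit as bars, is grouped by role, blue for pore proteins and red for transport receptors. Filled points passed an adjusted p under 0.05, and the 11 filled blue points all lie left of 0, while the filled red points lie on both sides.

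The median log2 difference was -0.18 for pore proteins and -0.03 for transport receptors (0.016 after renewed quantile normalization), against 0.01 over all genes and -0.06 over the genes at a level of at least 9. Differences below 0 were found for 18 of the 21 pore proteins and for 13 of the 23 receptors. No p-value was computed for these medians. Relative to each gene's own mean over the 4 arrays, the median pore protein was at 0.09 on both day 0 arrays and at -0.07 and -0.08 on the day 3 arrays. The median receptor was at 0.02 and -0.0023 at day 0 and at 0.02 and -0.03 at day 3, so the arrays of the days overlapped for receptors as a group and not for pore proteins.

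**Figure D2:**
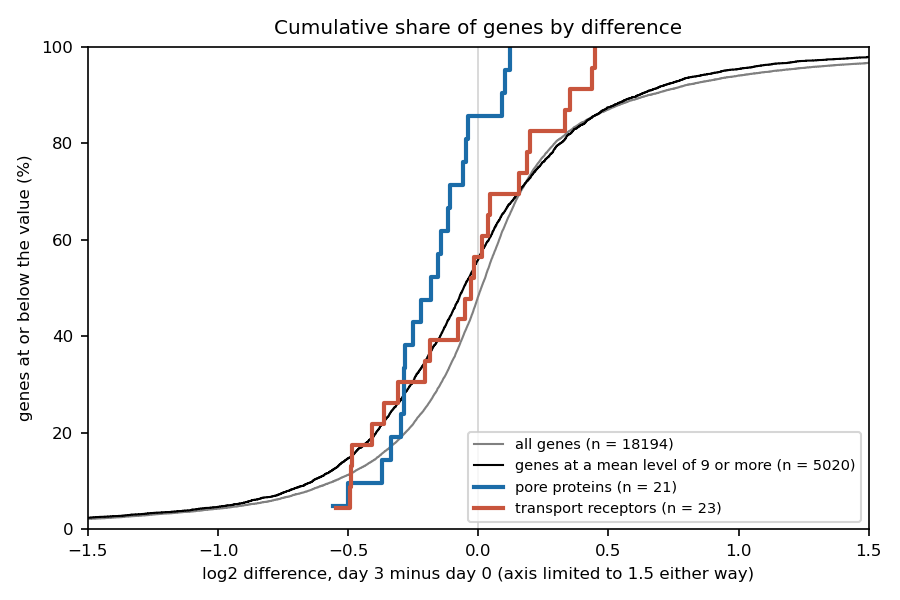
The cumulative share of genes (y axis, percent) is drawn against the log2 difference (x axis, limited to 1.5 either way) for 21 pore proteins, 23 transport receptors, all 18194 genes and the 5020 genes at a mean level of at least 9. The pore protein curve lies left of the others around 0 and spans -0.56 to 0.12, while the receptor curve spans -0.55 to 0.45.

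By the probe set kept, no member differed by 2-fold, a size reached by 10.2% of all genes with a call and by 9.16% of the genes at a level of at least 9. Called differences of at least 0.5 on the log2 scale were found for 2 of 44 members, Nup214 and Kpna1, beside 24.2% of all genes and 27.2% at that level. The largest fold between the days among these probe sets was 1.47. Dim second probe sets of Ipo11 and Nupl2 differed by more than 2-fold, at -1.35 and -1.15. For 39 of 44 members the day 0 and day 3 arrays were fully separate, beside 69.0% of all genes and 84.8% of the genes at a level of at least 9. In all, 23 of 44 were called, beside 42.3% of all genes and 64.4% at that level.

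**Figure D3:**
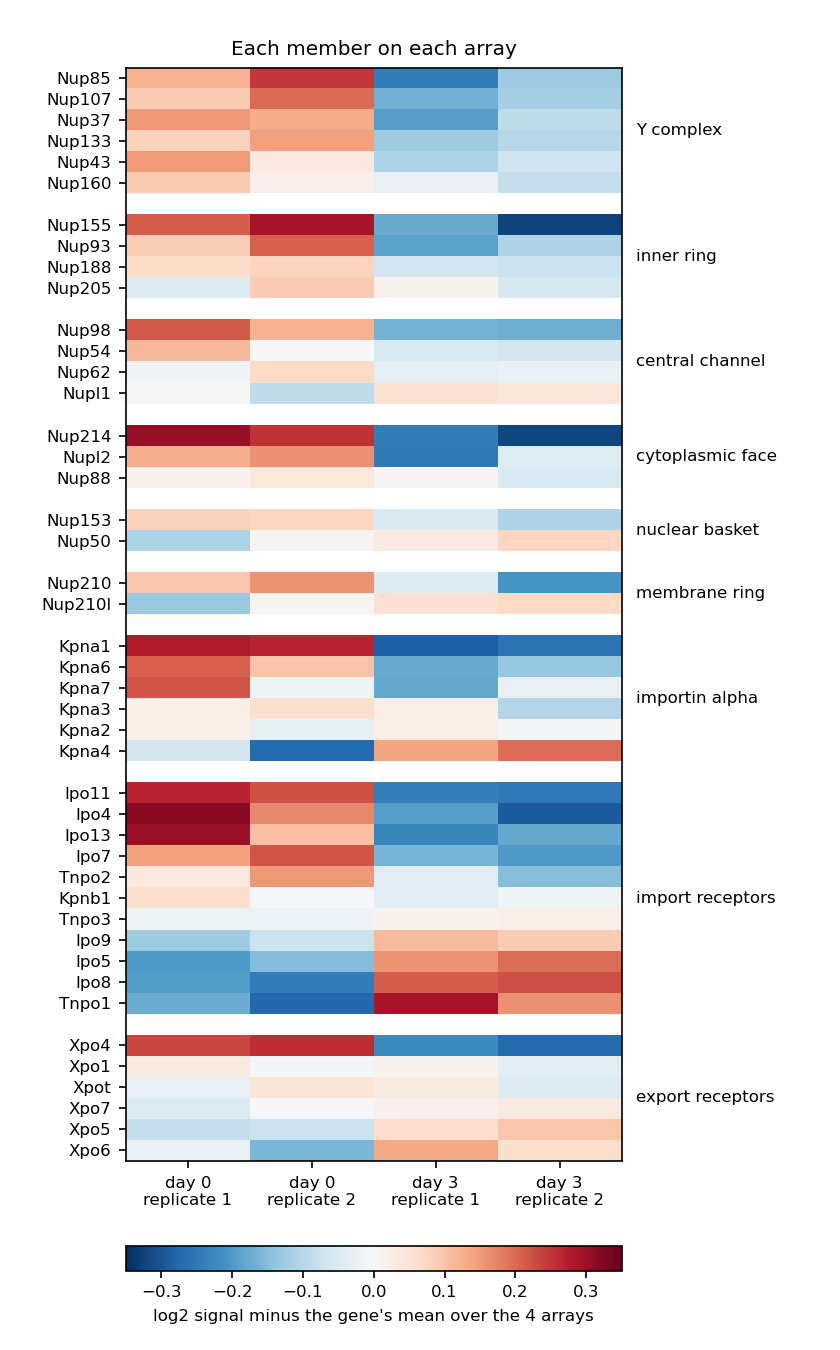
Each row is 1 member and each column 1 array, coloured by the log2 signal minus the gene's mean over the 4 arrays (red above, blue below). Most pore rows are red on the day 0 arrays and blue on the day 3 arrays, with Nup50, Nup210l and Nupl1 going the other way without a call, and the import receptors hold rows of both kinds.

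In the Y complex, the scaffold of the outer rings, 5 of the 6 subunits caught by the name rule fell, with a median log2 difference of -0.25. All 6 had a mean level of at least 9, where 36.4% of genes were called lower and 28.0% higher. Of 3 further proteins of the complex, Seh1l rose by 0.28, while Sec13 (-0.06) and Ahctf1 (-0.11) were not called. Nup85 had 11.39 and 11.51 on the day 0 arrays and 11.02 and 11.14 at day 3. Its difference was -0.37 ± 0.067 (SE, limma adjusted p = 0.0011). Both day 3 values lay below both day 0 values, and a second Nup85 probe set fell by 0.52. Nup107, which binds Nup133 in the stem of the complex, stood at 11.29 and 11.39 at day 0 and at 11.03 and 11.08 at day 3. It fell by 0.29 ± 0.062 (SE, adjusted p = 0.0033). Nup37, a peripheral subunit, was at 11.52 and 11.50 at day 0 and at 11.18 and 11.28 at day 3, a fall of 0.28 ± 0.060 (SE, adjusted p = 0.0029). The groups of arrays were separate for both genes. Nup133 fell by 0.22 (adjusted p = 0.010), and 4 of its 6 probe sets were called lower when every probe set was tested. Without day 3 replicate 1 or day 3 replicate 2 the Nup133 difference was -0.21 or -0.23 and not called. Nup43 fell by 0.18 with an adjusted p = 0.044, and lost its call without day 0 replicate 1 (-0.13), day 3 replicate 1 (-0.16) or day 3 replicate 2 (-0.20). Nup160 had a difference of -0.11 that was not called.

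Of the 4 measured inner ring proteins, 2 fell. All 4 had a mean level of at least 9, where 36.4% of genes were called lower and 28.0% higher. Nup155, which links the inner ring to the membrane, had 9.89 and 9.97 at day 0 and 9.50 and 9.36 at day 3, a difference of -0.50 ± 0.077 (SE, limma adjusted p = 3.4e-04). The next probe set of Nup155 did not move in the same way, with 9.20 at day 0 and 9.25 at day 3. Averaging the 3 probe sets of Nup155 gave a difference of -0.17 that was not called. The last of the 3, with equal weight in that average, was dim, at a mean level of 3.95. Nup93, a scaffold protein that holds the channel proteins in place, was measured by 1 probe set, at 11.27 and 11.40 at day 0 and at 11.00 and 11.08 at day 3. It fell by 0.30 ± 0.065 (SE, adjusted p = 0.0036), with -0.26 and no call without day 3 replicate 1. Nup188 and Nup205, large scaffold proteins of the same ring, had differences of -0.14 and -0.04 that were not called. For Nup205 the arrays of the days overlapped.

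Among the channel proteins with phenylalanine-glycine repeats, Nup98 was called lower. Its gene also encodes Nup96, a Y complex subunit made from the same precursor, so it bears on both parts of the pore. Nup98 had 11.01 and 10.92 at day 0 and 10.63 and 10.62 at day 3, a fall of 0.34 ± 0.062 (SE, limma adjusted p = 0.0012). Its second probe set differed by -0.16 and was not called. Nup62, Nup54 and Nupl1, also called Nup58, form the trimer of the central channel, and by the probe sets kept their differences were -0.06, -0.12 and 0.09, with no call. For Nup62 and Nup54 this rested on the brightest probe set, which in both cases is marked as matching several transcripts. When every probe set was tested, 3 of 5 Nup62 probe sets were called lower, at -0.25, -0.23 and -0.23, and 3 of 5 Nup54 probe sets, at -0.28, -0.33 and -0.66. Without the probe sets so marked, Nup62 was at -0.23 (adjusted p = 0.018) and Nup54 at -0.33 (adjusted p = 0.0015), both called.

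At the cytoplasmic face, Nup214 had the largest difference of the 44 members by the probe sets kept and all 4 arrays. With all probe sets averaged, Ipo11 (-0.92), Nupl2 (-0.72) and Kpna1 (-0.62) exceeded Nup214 (-0.61). Without day 3 replicate 2 Kpna1 (-0.56) exceeded Nup214 (-0.52). Without day 0 replicate 1 Kpna1 and Nup155 (both -0.54) exceeded it (-0.53). After renewed quantile normalization Xpo4 (-0.52) exceeded it (-0.51). Nup214, a protein of the cytoplasmic filaments, takes up export complexes. It was at 10.46 and 10.41 at day 0 and at 9.91 and 9.83 at day 3. Its difference was -0.56 ± 0.066 (SE, limma adjusted p = 5.39e-05), which is 1.47-fold, and the second probe set fell by 0.66. Nup88, the partner of Nup214 in the filaments, differed by -0.05, with a 95% interval of -0.18 to 0.08. Nupl2, also called Nup42, a docking site of messenger RNA export, was dim on every array. Its kept probe set had 6.60 and 6.64 at day 0 and 6.23 and 6.43 at day 3 (-0.29, adjusted p = 0.075). The other Nupl2 probe set had 6.68 and 6.60 at day 0 and 5.50 and 5.49 at day 3, a called fall of 1.15 when every probe set was tested.

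The nuclear basket and the membrane ring, with 2 members each, showed 1 called fall each, beside 21.4% of all genes called lower. Nup153, the basket protein that docks importins, was at 12.17 and 12.16 at day 0 and at 12.04 and 11.98 at day 3. The fall of 0.16 ± 0.053 (SE, limma adjusted p = 0.035) was not called after leaving out any 1 of the 4 arrays, where it ran from -0.18 to -0.13 with adjusted p-values of 0.071 to 0.19. A further Nup153 probe set was called lower, with differences of -0.49 to -0.16 over its 3 probe sets. Nup50, a mobile basket protein, had 0.10 and no call. Nup210, a membrane glycoprotein of the pore known for its induction in muscle and neural differentiation, had 8.82 and 8.88 at day 0 and 8.68 and 8.52 at day 3. It fell by 0.25 ± 0.086 (SE, adjusted p = 0.038), and its call was lost without day 0 replicate 2 (-0.22) or day 3 replicate 2 (-0.17). Nup210l, its paralog, had 0.12 and no call.

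Of 9 measured pore proteins outside the name rule, 4 were called lower, 1 higher and 4 neither. All 9 had a mean level of at least 9, where 36.4% of genes were called lower and 28.0% higher. Gle1, which activates the export helicase at the cytoplasmic filaments, fell from 9.85 and 9.82 to 9.38 and 9.36, a difference of -0.46 ± 0.068 (SE, limma adjusted p = 2.71e-04). Aaas (-0.35), Rae1 (-0.31), a partner of Nup98, and Ranbp2 (-0.26), the Ran-binding filament protein, also fell. Seh1l was the gene called higher, and Pom121, a membrane protein of the pore, had 0.18 and no call. Tpr was not analysed here.

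Genes of cell division moved in the same arrays. Of 8 S phase genes, 6 were called lower and 0 higher, with 6 lower and 0 higher at an unadjusted p under 0.05 in limma, and their summed linear signal was 53232 and 53328 at day 0 against 45954 and 45078 at day 3. Of 9 measured mitotic genes, 4 fell, 1 rose and 4 were not called. The summed signal of the mitotic genes was 35617 to 35996 at day 0 and 31162 to 31717 at day 3. All genes of both lists had a mean level of at least 9, where 36.4% of genes were called lower and 28.0% higher. The part of the cell cycle genes in the pore result was not tested.

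Importin alpha proteins, the adaptors that bind nuclear localisation signals, went both ways, with 2 of 6 lower, 1 higher and 3 not called. A mean level of at least 9 was reached by 5 of the 6. Among all genes at that level, 36.4% were called lower and 28.0% higher, so these counts did not stand out. Kpna1 had 10.05 and 10.04 at day 0 and 9.49 and 9.52 at day 3, a fall of 0.55 ± 0.067 (SE, limma adjusted p = 6.58e-05). All 5 Kpna1 probe sets were called lower, at -0.83 to -0.39. Kpna6, of the same importin alpha subfamily as Kpna1, was at 9.88 and 9.77 at day 0 and at 9.50 and 9.54 at day 3. It fell by 0.31 ± 0.072 (SE, adjusted p = 0.0051), and its second probe set by 0.71. Without day 3 replicate 1 the Kpna6 difference was -0.29 and not called. Thus the 2 measured members of this subfamily fell by all 7 of their probe sets.

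Kpna4 was the importin alpha called higher. It had 11.10 and 10.89 at day 0 and 11.30 and 11.36 at day 3, a difference of 0.33 ± 0.074 (SE, limma adjusted p = 0.0037). A dim second probe set differed by 0.04. Without day 3 replicate 2 the Kpna4 difference was 0.31 and not called, and the mean of both probe sets gave 0.19 without a call. Kpna3, of the same subfamily, differed by -0.08 without a call, although 1 of its 3 probe sets was called lower at -0.31. Kpna2, the subtype known for its high level in embryonic stem cells, had 13.37 and 13.32 at day 0 and 13.37 and 13.34 at day 3. Its difference was 0.02 with a 95% interval of -0.09 to 0.12. For this 1 probe set of Kpna2, on 2 arrays per day, a change of the size seen for Kpna1 lay outside the interval. Kpna7, an importin alpha of oocytes and early embryos, was dim, with means of 5.22 at day 0 and 5.01 at day 3, and was not called.

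**Figure D4:**
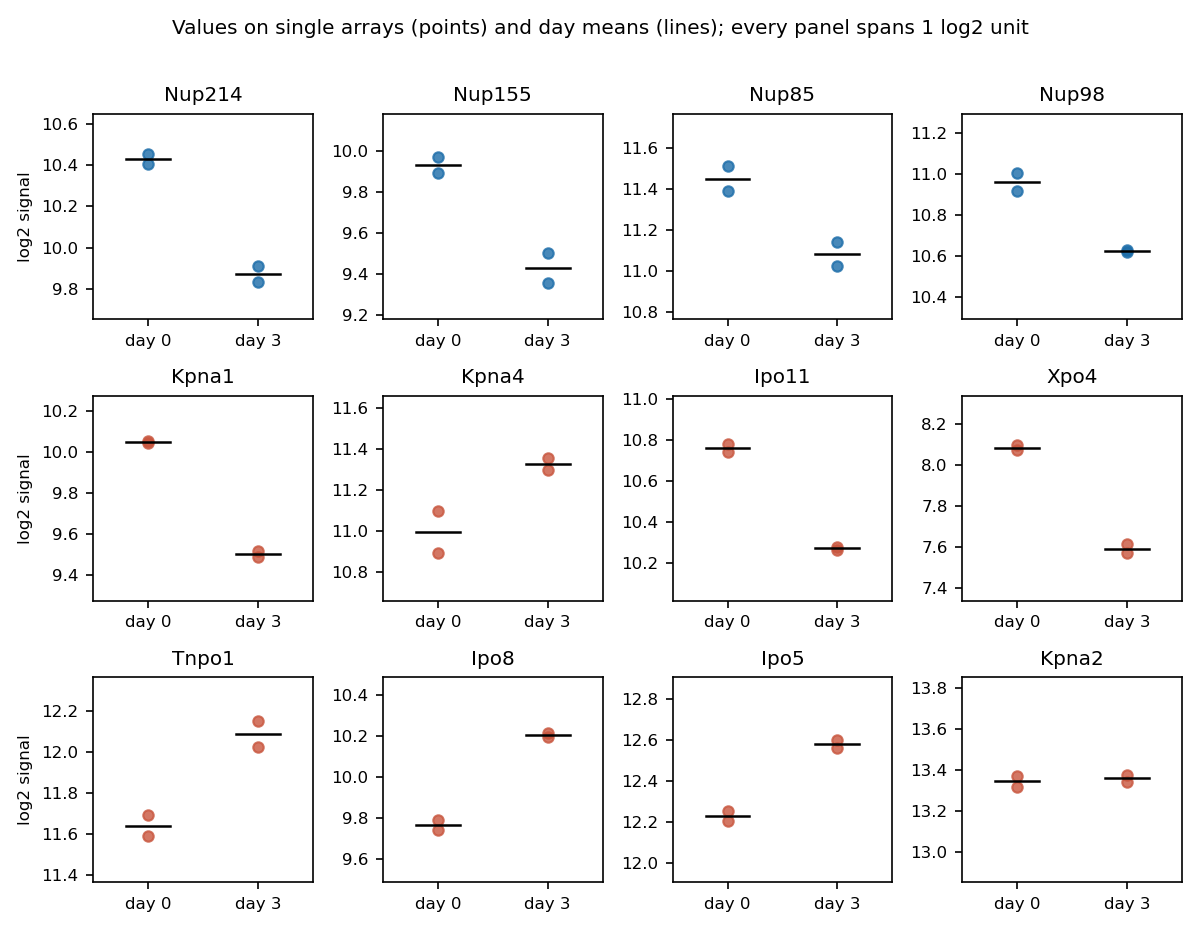
Points are the log2 signals of 12 members on each array, with day 0 on the left and day 3 on the right of each panel, and lines are the means of 2 arrays. Every panel spans 1 log2 unit, so that the falls of Nup214 and Kpna1, the rise of Tnpo1 and the level of Kpna2 can be compared by eye.

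Import receptors of the importin beta family split evenly. Of the 11, 4 fell, 4 rose and 3 did not pass, and for all 11 the arrays were separate between days. A mean level of at least 9 was reached by 10 of the 11. Among all genes at that level, 36.4% were called lower, 28.0% higher, and 84.8% had separate arrays. Ipo11, an importer of ubiquitin-conjugating enzymes, had 10.78 and 10.74 at day 0 and 10.28 and 10.27 at day 3. It fell by 0.49 ± 0.061 (SE, limma adjusted p = 7.74e-05), and a dim second probe set fell by 1.35. Ipo4, an importer of histones and ribosomal proteins, was at 11.18 and 11.03 at day 0 and at 10.67 and 10.57 at day 3. It fell by 0.48 ± 0.070 (SE, adjusted p = 2.25e-04) with a second probe set at -0.49. Ipo7, which carries ribosomal proteins and signalling proteins, fell by 0.36. Ipo13, a receptor that carries cargo both ways, fell by 0.41, and without day 3 replicate 1 it was at -0.38 and not called.

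The receptors called higher were Tnpo1, Ipo8, Ipo5 and Ipo9. Tnpo1, or transportin, imports RNA-binding proteins, and it had 11.69 and 11.59 at day 0 and 12.15 and 12.02 at day 3. Its difference was 0.45 ± 0.064 (SE, limma adjusted p = 1.96e-04). Ipo8, the closest relative of Ipo7 among the receptors, had 9.79 and 9.74 at day 0 and 10.20 and 10.21 at day 3, a rise of 0.44 ± 0.065 (SE, adjusted p = 2.82e-04). The pair thus passed the test in opposite directions. Ipo5, an importer of ribosomal proteins and histones, had 12.21 and 12.26 at day 0 and 12.56 and 12.60 at day 3, a rise of 0.35. Ipo9, a histone importer, rose by 0.20 (limma adjusted p = 0.022). It was not called without day 0 replicate 1 (0.18), day 3 replicate 1 (0.19) or day 3 replicate 2 (0.21). Its call was also lost without the intensity trend and after centring on the median gene (0.07). The kept Ipo9 probe set is marked as matching several transcripts, and without probe sets so marked Ipo9 was at 0.17 and not called.

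Kpnb1, or importin beta, which pairs with the alpha adaptors, had a difference of -0.05 and a 95% interval of -0.16 to 0.06. Of its 4 probe sets, 1 was called lower at -0.34. The kept Kpnb1 probe set is marked as matching several transcripts, and without probe sets so marked Kpnb1 was at 0.06 and not called. Tnpo2, a near relative of Tnpo1, had -0.18 (adjusted p = 0.093), and without day 0 replicate 1 it was at -0.24 and called. Tnpo3, the importer of splicing factors, had 0.04 without a call.

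The rises were carried by the brightest probe set of each gene. When every probe set was tested, with adjustment over 34958 probe sets, 16 members were called lower by the probe set kept and 12 of these had further probe sets. For 10 of the 12, another probe set was called lower too. All 5 members called higher had further probe sets, and for 0 of the 5 was another one called higher. Of the 65 receptor probe sets, 22 were called lower and 5 higher, and of the 52 pore probe sets, 23 were lower and 0 higher, beside 19.0% lower and 17.1% higher over all probe sets. Tnpo1 and Ipo9 had probe sets called in opposite directions. The second Tnpo1 probe set was at 10.36 and 10.39 at day 0 and at 10.05 and 10.12 at day 3, a called fall of 0.29, and the dimmest Ipo9 probe set fell by 0.29. With all probe sets of a gene averaged, limma called 0 receptors higher (2 at an unadjusted p under 0.05), with 0.15 for Ipo8, 0.08 for Ipo5, 0.03 for Ipo9 and -0.0012 for Tnpo1. This average gives dim probe sets equal weight, such as those of Ipo8 and Tnpo1 at mean levels of 4.77 and 5.09. The next brightest probe set differed by 0.17 for Ipo8, 0.17 for Ipo9 and 0.07 for Ipo5, without a call, and by -0.29 for Tnpo1. Which transcript each probe set measures was not analysed here.

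**Figure D5:**
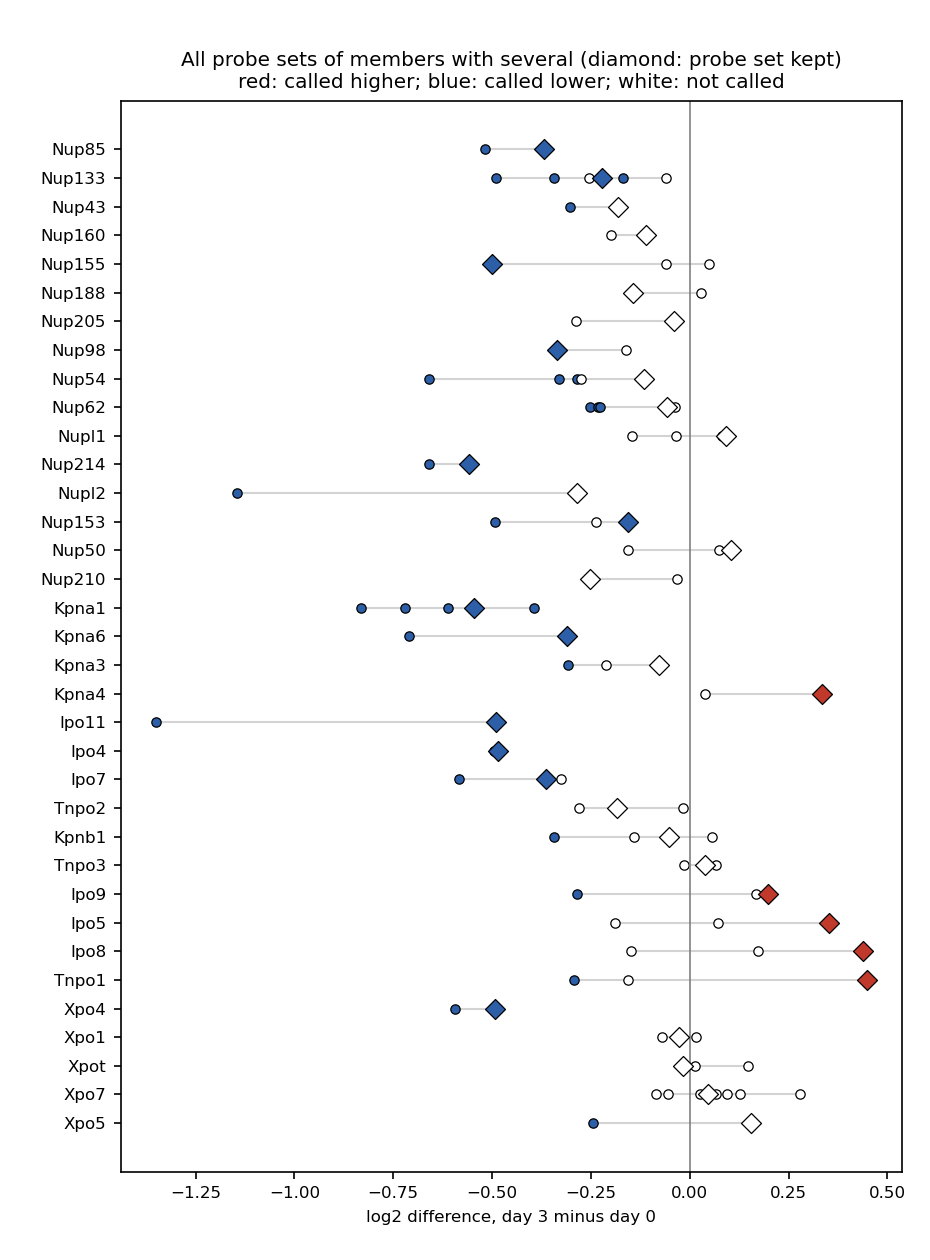
Every probe set of the members with several is drawn by its log2 difference, diamonds being the probe sets kept; calls here are adjusted over 34958 probe sets, so Nup43 and Nup210 are open. The 5 red diamonds have no red circle beside them, while the 5 Kpna1 probe sets are all blue.

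Of the 6 export receptors, 1 was called lower, 0 higher and 5 neither by limma, with 2 higher and 1 lower at an unadjusted p under 0.05. A mean level of at least 9 was reached by 5 of the 6, and 36.4% of genes at that level were called lower and 28.0% higher. After renewed quantile normalization Xpo5 (0.21, limma adjusted p = 0.028) and Xpo6 (0.24, adjusted p = 0.022) were called higher. Xpo4, which exports Smad3 and imports Sox2, had 8.07 and 8.10 at day 0 and 7.62 and 7.57 at day 3. It fell by 0.49 ± 0.089 (SE, limma adjusted p = 9.93e-04), and all 3 of its probe sets were called lower. Xpo1, the main exporter of proteins with leucine-rich signals, differed by -0.03, with a 95% interval of -0.14 to 0.09. Xpot, the exporter of transfer RNA, differed by -0.02 and Xpo7 by 0.05, and neither was called by any of its 4 and 8 probe sets. Mean levels went down to 2.96 for Xpot and 2.85 for Xpo7, and such dim probe sets could hardly have been called. The brighter further probe sets differed by 0.01 and -0.02 for Xpot and by 0.07 for Xpo7. Xpo5, the exporter of microRNA precursors, had 0.16 (adjusted p = 0.091) with a second probe set called lower at -0.24. Xpo6, the exporter of actin, had 0.19 (adjusted p = 0.060), and without day 0 replicate 1 it was at 0.25 and called.

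Of 7 measured genes of the Ran cycle, which powers these receptors, 2 fell, 0 rose (0 also at an unadjusted p under 0.05 in limma) and 5 were not called. Ran itself was at 14.16 ± 0.04 and 14.17 ± 0.01 (mean ± SD, n = 2). Rcc1, which loads Ran with GTP, fell by 0.25, and Ranbp3, a cofactor of Xpo1, by 0.31. Of 7 transport receptors outside the name rule, 4 fell and 1 rose. Cse1l, which returns importin alpha to the cytoplasm, differed by -0.04 without a call. The importin-like Ranbp17 and Ranbp6 fell by 0.57 and 0.56, Nxf1, the main receptor of messenger RNA export, by 0.30, and Snupn, which imports small nuclear ribonucleoproteins, by 0.28. Nxt2, a cofactor of messenger RNA export, had 7.74 and 7.70 at day 0 and 8.83 and 8.76 at day 3 and rose by 1.08. Of 9 genes of the lamina and envelope, 3 fell, 1 rose and 5 were not called, with the lamins Lmna at -1.26 and Lmnb2 at -0.70 and Sun1, which ties the envelope to the cytoskeleton, at -1.23. Lbr, the lamin B receptor, rose by 0.18. Beside these counts, 21.4% of all genes were called lower and 20.9% higher. At a mean level of at least 9 the shares were 36.4% and 28.0%.

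Promoter sequences of RefSeq (build GRCm38.p6) were matched by gene identifier for 36 of the 44 members, with 43 windows of 250 bases before an annotated start. The windows were rich in G and C, with a median of 64.0% against 57.6% for the genes on the array and 52.4% for all windows. Exact motifs were searched on both strands. The NRF1 motif, the run of capitals nearest the 3′ end of the Nup62 window printed with the sequences, stood in 4 of 43 windows (9.30%), those of Nup107, Nup50, Nup62 and Xpo5, beside 0.782% of all 32851 windows and 1.23% of the windows of genes on the array. Of these 4 genes Nup107 was called lower and the others were not called. CCGGAAG, a motif of ETS factors, stood in 16.3% of member windows and 6.91% of all (10.1% for genes on the array). Of the 7 member windows with it, 5 belonged to members called lower, which held 16 of the 43 windows. Both overlapping Nup37 windows were among these 5. The E box CACGTG stood in 6 windows against 6.02% of all (7.39% for genes on the array), CCAAT in 48.8% against 33.9% (34.8%), the GC box GGGCGG in 60.5% against 32.7% (48.4% for genes on the array), and TATAAA in 9.30% against 12.4% (8.80%, on the other side of the members). The higher G and C share moved with these counts, and its part was not tested. Windows of 1 gene overlap for Ipo9 and Nup37, a GC box can overlap another motif, and a match is a description of letters only.

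Shown are 5 of the windows, each outside its gene's annotated span, 5′ to 3′ on the gene's strand, with the motifs in capitals. Nup62 holds the NRF1 motif, Nup93 and Ipo11 belong to genes that fell, and Tnpo1 and Kpna4 to genes that rose by the probe set kept. The positions are chr7:44815838-44816087 (plus strand) for Nup62, chr8:94214314-94214563 (plus) for Nup93, chr13:106936959-106937208 (minus) for Ipo11, chr13:98926385-98926634 (minus) for Tnpo1 and chr3:69127093-69127342 (minus) for Kpna4.
Nup62: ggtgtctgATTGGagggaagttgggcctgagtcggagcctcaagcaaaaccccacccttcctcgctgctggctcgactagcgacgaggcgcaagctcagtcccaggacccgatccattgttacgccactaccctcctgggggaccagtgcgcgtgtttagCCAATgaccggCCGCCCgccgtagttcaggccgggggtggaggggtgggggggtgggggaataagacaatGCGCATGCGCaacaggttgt
Nup93: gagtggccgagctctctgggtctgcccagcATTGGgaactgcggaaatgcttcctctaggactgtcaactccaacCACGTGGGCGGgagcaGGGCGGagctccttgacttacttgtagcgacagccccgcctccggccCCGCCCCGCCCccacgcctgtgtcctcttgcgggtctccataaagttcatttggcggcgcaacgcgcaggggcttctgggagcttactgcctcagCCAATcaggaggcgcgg
Ipo11: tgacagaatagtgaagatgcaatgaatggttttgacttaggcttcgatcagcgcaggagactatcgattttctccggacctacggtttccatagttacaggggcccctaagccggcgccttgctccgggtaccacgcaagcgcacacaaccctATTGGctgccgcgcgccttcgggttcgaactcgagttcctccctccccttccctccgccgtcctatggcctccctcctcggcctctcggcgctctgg
Tnpo1: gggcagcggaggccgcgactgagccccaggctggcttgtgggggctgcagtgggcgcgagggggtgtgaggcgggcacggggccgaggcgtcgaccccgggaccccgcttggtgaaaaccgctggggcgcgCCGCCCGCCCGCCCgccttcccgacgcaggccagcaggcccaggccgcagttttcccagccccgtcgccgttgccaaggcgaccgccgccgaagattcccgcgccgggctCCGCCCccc
Kpna4: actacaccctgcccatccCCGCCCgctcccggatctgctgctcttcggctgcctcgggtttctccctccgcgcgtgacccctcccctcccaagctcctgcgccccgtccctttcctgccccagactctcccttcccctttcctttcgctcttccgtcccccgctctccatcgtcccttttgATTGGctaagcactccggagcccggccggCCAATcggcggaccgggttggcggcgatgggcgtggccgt
The Nup62 window has the NRF1 motif near its 3′ end with CCAAT and GC boxes before it, and the Nup93 window joins an E box to a GC box. Ipo11 shows 1 CCAAT box, read on the other strand, and Tnpo1 shows GC boxes only. The windows of genes that fell and of genes that rose both hold CCAAT boxes, in 8 of 16 and 3 of 8 windows.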

How the data were processed

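Expression was measured on 4 Affymetrix arrays, 2 per day, from biotin-labelled total RNA. The deposited table holds log2 values, 1 per probe set and array, made by the authors with RMA (background correction, normalization and summary of the probes) and R 2.13.0, per the submitters' processing notes. Further settings are not given in the sources used here. RMA makes the arrays' distributions alike, so a change in total RNA per cell is not visible, while dim probe sets show smaller differences than their RNA. Detection calls were not analysed here.

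Of 45101 probe sets, 34958 had 1 symbol in the platform annotation, 932 had several and 9211 had none. For each of 18194 genes, the brightest probe set (highest mean of the 4 arrays) was kept. All 44 members were found by gene identifier in a RefSeq table of GRCm38.p6, and 0 symbols were updated. Day 3 was compared with day 0 in limma 3.58.1 under R 4.3.3 (lmFit, then eBayes with an intensity trend, no covariate). Tests were two-sided, with Benjamini-Hochberg adjustment over all genes and calls at an adjusted p under 0.05. There were 2 residual degrees of freedom, and the shared variance estimate added 8.02. Values on every array were printed for the 3 called members of each role group with the largest differences and for called members with a difference of at least 0.5 in size, and for Ipo8, Ipo5, Kpna2 and a few further probe sets, chosen after their values were seen. The members and lists were chosen with earlier results of these data known.

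On simulated data for day 3 against day 0 over 18194 genes, 18% of 50 genes with a true log2 difference of 0.3 were recovered, 46% of 50 at 0.5, 94% of 50 at 1 and 100% of 50 at 2, and 1 of 17994 unchanged genes was called. The simulation changed far fewer genes than the data called, so its rates may not carry over. Same-numbered arrays did not deviate together (correlation of -0.017 over 18194 genes), so the replicate number was used as a block only as an alternative. The other alternatives were a fit without the trend, an unmoderated test per gene, renewed quantile normalization, centring on the array median, a restriction to genes above the median level, averaging all probe sets of a gene, dropping probe sets that the array design marks for several transcripts, an adjusted p under 0.01, and each array left out in turn. A separate fit of every probe set and centring on the median gene were added after seeing the data.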

Additional observations from a re-analysis of the deposited data

How the results depend on the processing

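None of the 21 pore proteins caught by the name rule was called higher in any alternative run. At an unadjusted p under 0.05 limma gave 2 higher after renewed quantile normalization and 0 in the others. The count of pore proteins called lower was 11, and 7 at an adjusted p under 0.01, 7 without the intensity trend, 1 in the unmoderated test (Nup188, which was not among the 11), 17 after centring on the median gene, and 7 to 9 with 1 array left out. Of all genes, 16.8% were called lower at an adjusted p under 0.01 and 19.1% without the intensity trend, against 21.4%. In the unmoderated test 5.96% were called lower. The median difference of pore proteins was -0.18, and -0.14 after renewed quantile normalization. It was -0.19 after centring on the array median and -0.32 after centring on the median gene. With all probe sets of a gene averaged it was -0.24, and -0.24 without probe sets marked for several transcripts. With 1 array left out it ran from -0.19 to -0.15. Receptors called higher were 5, and 1 in the unmoderated test, 0 from the mean of probe sets, 7 after renewed quantile normalization (with Xpo5 and Xpo6), 6 among genes above the median level, and 3 to 5 with 1 array left out. Receptors called lower were 7, and 3 in the unmoderated test, 11 after centring on the median gene and 5 to 8 with 1 array left out. Their median of -0.03 turned to 0.016 after renewed quantile normalization, and was -0.16 after centring on the median gene and -0.053 to -0.0024 with 1 array left out. Tnpo1 turned to -0.0012 with the mean of its probe sets, of which 1 was called higher and 1 lower. Centring on the median gene moved the median of all genes to -0.12, with 2866 genes higher and 5652 lower against 3804 and 3901, and relative to that median pore proteins were at -0.19 and receptors at -0.04. With the replicate block, 10 pore proteins and 7 receptors were lower and 5 receptors higher. Nup43 lost its call with the replicate block (-0.18, adjusted p = 0.051), and no other member's call changed. Of 23 called members, 10, all lower, kept their call in every alternative run that held them except the unmoderated test. The cause of these shifts was not tested. With an array left out, the lone array of its day was assumed to vary like the other day's. Members not called changed sign 21 times over the alternatives. Probe sets near the arrays' first quartile (4.30 to 4.33) were not separated from background.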
